A study of Mus musculus with 6 samples.

Results

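Solute carriers are membrane proteins that move small molecules and ions across the plasma membrane or into organelles without using ATP directly, and they are grouped into numbered SLC families by sequence. The genes described here are those outside the families best known for amino acid transport. They were the array probes whose annotated gene symbol began with Slc and a digit, leaving out families Slc1, Slc3, Slc6, Slc7, Slc36, Slc38 and Slc43 and the genes Slc2a1, Slc10a6 and Slc34a2, that had a detection p under 0.05 on 3 or more of the 6 arrays. The rule found 155 genes measured by 194 probes, of 9383 genes and 13361 probes tested. Gene symbols were at hand only for probes of the deposited processed table, which holds 13261 of the 25697 probes, so carriers on unnamed probes may be missing and the detection filter removed none of the annotated probes of this kind. Of the 155 genes, 135 were detected on all 6 arrays. At the edge of the rule stood 6 genes detected on exactly 3 arrays: Slc19a3, Slc46a1, Slc35g3, Slc17a7, Slc30a8 and Slc39a12. RefSeq lists 308 protein-coding mouse genes with such symbols, and those beyond the 155 were not analysed here. The symbols Slc4a1ap, Slc9a3r1 and Slc9a3r2 follow the rule but name adaptor and scaffold proteins, not carriers.

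The arrays measured RNA from whole lungs of adult mice, 3 per group, and the comparison asks how the lung RNA of the CreER mice departs from that of controls once tamoxifen has been given to remove Tmem100, an endothelial gene. Controls were Tmem1002loxP/2loxP and mutants Tmem1002loxP/2loxP;ROSA26+/CreER, so both groups carried 2loxP alleles of Tmem100 and only mutants carried CreER, a tamoxifen-activated recombinase expressed from the widely active ROSA26 locus. Every mouse received 2 intraperitoneal tamoxifen injections of 0.1 mg per g, and lungs were taken 7 days later. No group without tamoxifen and no CreER mouse without the floxed allele is among these samples, so deletion of the gene and CreER activity cannot be told apart.

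Levels below are normalized log2 intensities, and a difference is the mutant mean minus the control mean with the standard error of the limma fit (3 mice per group). A gene rose or fell where the p-value, adjusted over all 13361 tested probes by the Benjamini-Hochberg method, was below 0.05. Values for 3 mice are always given in the order mouse 1, 2 and 3. Tmem100 itself read 11.16, 15.36 and 10.69 in controls and 8.44, 9.43 and 9.51 in mutants, a difference of -3.28 ± 1.15 that did not pass (adjusted p = 0.0749). With control mouse 2 left out it was -1.80 and passed (adjusted p = 0.0283), the single alternative in which it did. With control mouse 1 or 3 left out it was -3.90 or -4.13. Control mouse 2 was far above the other controls, and the sources used here do not say whether its probe lies in the deleted part. Between 12781 and 13749 probes were detected per array. Beside the marker counts that follow, 14.5% of all genes tested fell. All 9 alveolar type 2 markers were detected, 1 of them fell, and their mean level lay between 13.39 and 13.95 on every array. Pan-endothelial markers fell in 6 of 11 genes, with a list mean of 13.18 to 13.30 in controls and 12.56 to 12.84 in mutants. Cardiac muscle markers fell in 3 of 8 (11.17 to 12.41 against 9.35 to 10.49), skeletal muscle markers in 2 of 4 (8.03 to 11.83 against 6.68 to 7.29) and adipocyte markers in 1 of 4 (7.88 to 10.26 against 7.16 to 7.82). Of 7 macrophage markers 1 fell. None of 7 neutrophil markers passed, and their mean was 11.39 in control mouse 1 against 9.17 and 8.84 in the other controls and 9.23 to 10.17 in mutants. Hba-a1, the only measured erythroid marker, ranged from 8.59 to 15.97 among controls and from 9.77 to 10.12 among mutants. The part of these other cells in the results below was not tested, and in whole tissue fewer cells of a type and less RNA per cell cannot be told apart.

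Carriers set what a cell can take up, export or hand to its organelles. Glucose, lactate, fatty acid and vitamin carriers supply fuel and cofactors, SLC39 proteins bring zinc into the cytosol and SLC30 proteins remove it. SLC25 proteins link the cytosol with the mitochondrial matrix, and SLC35 proteins feed sugar nucleotides to the Golgi. In the lung, ion carriers also take part in moving fluid across the epithelium.

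Of the 155 measured carrier genes, 26 rose and 12 fell in mutant lungs, 38 in all (24.5%), where 27.2% of all genes tested passed. The share that rose was 16.8%, against 12.7% of all genes, and the share that fell was 7.74%, against 14.5% of all genes. The median difference was 0.10 over the carriers and 0.01 over all genes tested. Rises of 2-fold or more were measured for 10 carriers and falls of 2-fold or more for 4, leaving out Slc19a3 and Slc46a1, for which only a bound can be given. The groups did not overlap for 73 carriers (47.1%), against 49.1% of all genes, and for each of the 38 that passed. These shares describe where the carriers stand and were not tested against the rest of the array. Without control mouse 1, 16 carriers rose and 8 fell, the lowest counts with any 1 mouse left out, while 5.28% of all genes rose and 7.16% fell. With array weights 37 carriers rose and 20 fell, while 18.6% of all genes rose and 19.2% fell.

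**Figure D1:**
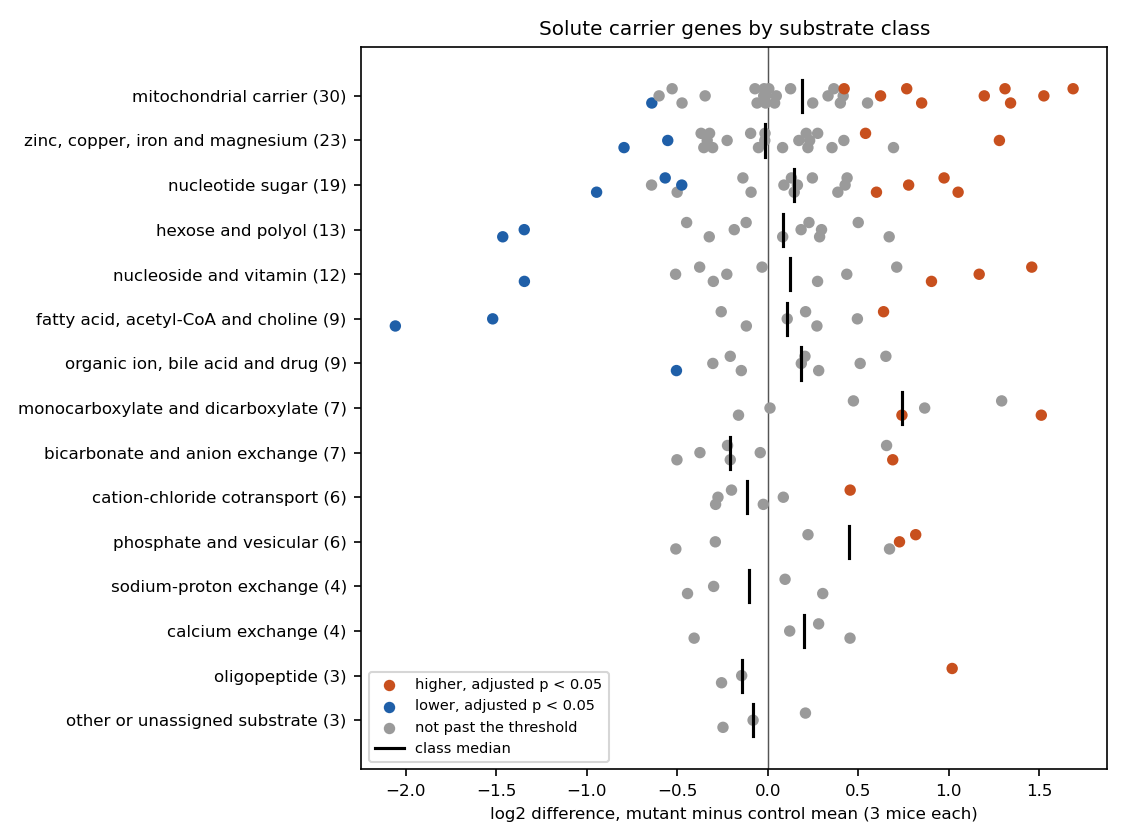
Each point is 1 of the 155 carrier genes, placed by its log2 difference between mutant and control means (horizontal axis, 3 mice each) and by substrate class with the number of genes in brackets. Black bars are class medians, orange and blue points passed the threshold, and the mitochondrial class holds 9 of the 26 rises.

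**Figure D2:**
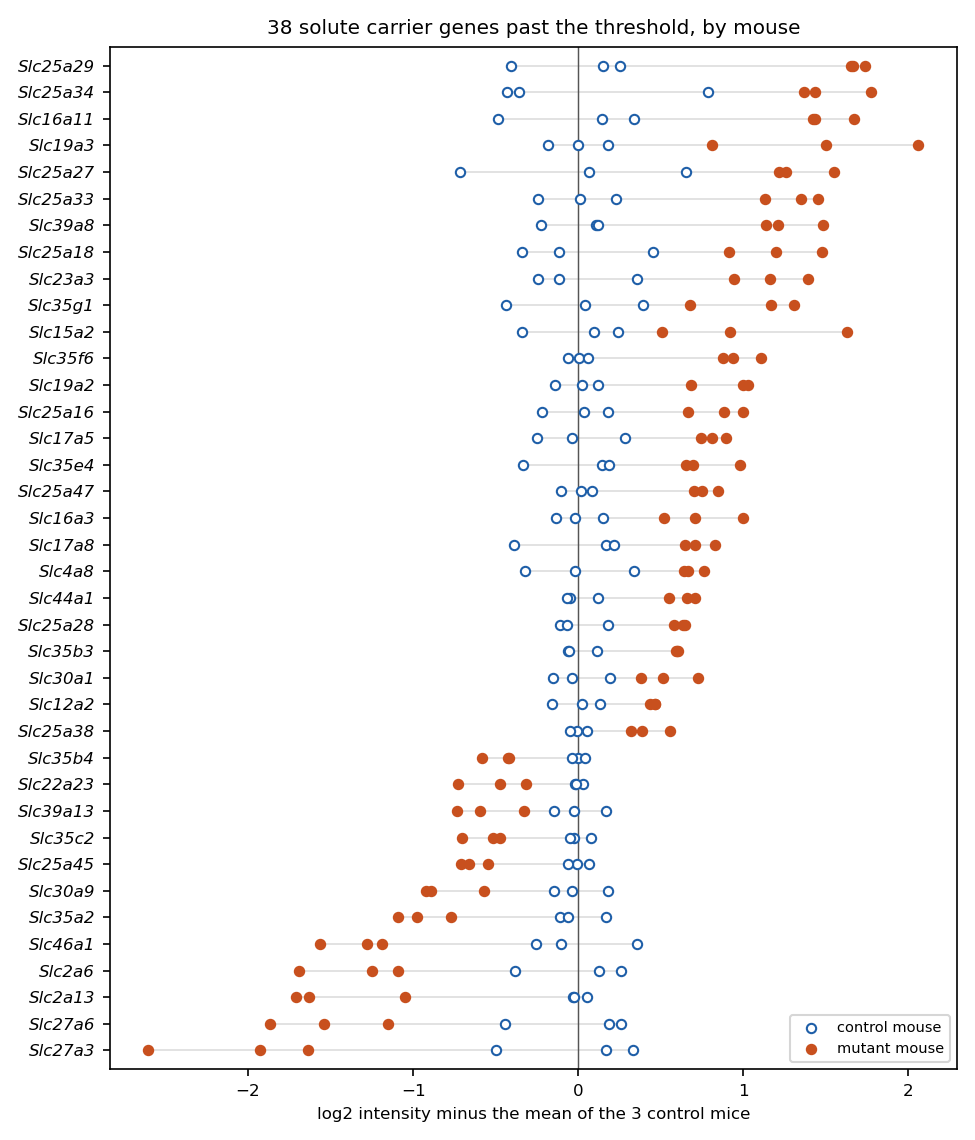
Points are single mice for the 38 carrier genes past the threshold, as log2 intensity minus the mean of the 3 control mice (horizontal axis). The 3 mutant points lie on 1 side of the 3 control points for every gene shown, from Slc27a3 at the bottom (difference -2.06) to Slc25a29 at the top (1.69).

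Most hexose and polyol carriers did not pass, and the 2 that fell are not the main glucose transporters of the cell surface. Of 13 measured, 2 fell and none rose (15.4%, against 27.2% of all genes), with a class median of 0.08. Slc2a13, which encodes the proton-coupled myo-inositol transporter HMIT, read 8.90, 8.98 and 8.91 in controls and 7.30, 7.88 and 7.22 in mutants. It was 2.76-fold lower (log2 -1.46 ± 0.19, adjusted p = 0.00424), and its 3 control values lay closer together than its mutant values. Slc2a6, which encodes the lysosomal facilitative carrier GLUT6, read 8.67, 8.80 and 8.16 in controls and 6.85, 7.45 and 7.29 in mutants. It was 2.54-fold lower (log2 -1.34 ± 0.22, adjusted p = 0.00782). The neuronal-type glucose transporter gene Slc2a3 differed by -0.19 ± 0.30 and the insulin-regulated one, Slc2a4, by 0.50 ± 0.32, with overlapping groups for each. Without background correction Slc2a13 was 1.67-fold and Slc2a6 1.53-fold lower. With array weights 2 of the 13 genes rose, while 18.6% of all genes rose.

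Carriers of monocarboxylates and dicarboxylates had the highest class median, 0.74 over 7 genes. Of these, 2 rose and none fell (28.6%, against 27.2% of all genes). Slc16a11, a member of the monocarboxylate transporter family (MCT11), read 7.64, 7.01 and 7.83 in controls and 9.17, 8.93 and 8.92 in mutants. All 3 mutants were above all controls, a 2.85-fold rise (log2 1.51 ± 0.22, adjusted p = 0.00578) that was 1.72-fold without background correction. Slc16a3, which encodes the lactate exporter MCT4, was detected on 1 control array and 3 mutant arrays and rose 1.67-fold (log2 0.74 ± 0.16, adjusted p = 0.016). The sodium-coupled monocarboxylate transporter gene Slc5a8 had a difference of 1.29 ± 0.47 but did not pass (adjusted p = 0.0834), and mutant mouse 2 at 6.65 lay just below control mouse 1 at 6.71. The class median rested on control mouse 2, which was the lowest control for Slc16a11, Slc5a8 and Slc13a4: without it the median was 0.39, as it was without background correction, and it was 0.23 with the deposited processed values. The call of Slc16a3 was lost without control mouse 1 or 2, without background correction and with the deposited processed values (adjusted p up to 0.13).

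Among carriers of fatty acids, acetyl-CoA and choline, the genes that passed were Slc27a3, Slc27a6 and Slc44a1. SLC27 proteins take up long-chain fatty acids and join them to coenzyme A, and SLC44 proteins carry choline, a precursor of phosphatidylcholine. Of 9 measured genes, 2 fell and 1 rose (33.3%, against 27.2% of all genes). Slc27a3 read 8.76, 8.93 and 8.10 in controls and 6.66, 6.96 and 5.99 in mutants. This was the largest fall of any measured carrier, 4.16-fold (log2 -2.06 ± 0.30, adjusted p = 0.00597), and its probe was detected on 2 of the 3 mutant arrays. Slc27a6, known for its expression in heart, read 8.20, 8.27 and 7.56 in controls and 6.47, 6.86 and 6.14 in mutants, a 2.87-fold fall (log2 -1.52 ± 0.25, adjusted p = 0.00773). Cardiac and adipocyte markers were lower in mutants too, by the values given above. Their control list means were 11.17, 12.41 and 11.28 (cardiac) and 8.36, 10.26 and 7.88 (adipocyte). Control mouse 2 was the highest control for both lists and both genes. The lowest control was mouse 3 for both genes and the adipocyte list, and mouse 1 for the cardiac list. The part of those cells in these falls was not tested. Slc44a1, the choline transporter gene, rose 1.56-fold (log2 0.64 ± 0.11, adjusted p = 0.00956), from 10.07 to 10.25 in controls to 10.69 to 10.84 in mutants. Slc27a1, another fatty acid transporter gene, differed by 0.49 ± 0.20 and did not pass (adjusted p = 0.111), but passed with array weights and without mutant mouse 3. Without background correction Slc27a3 was 1.80-fold and Slc27a6 1.46-fold lower, and neither was tested when detection p below 0.01 was required on all 6 arrays.

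Vitamin and nucleoside carriers held both known thiamine transporter genes of the plasma membrane, Slc19a2 and Slc19a3. Of 12 genes, 3 rose and 1 fell (33.3%, against 27.2% of all genes), with a class median of 0.12. Slc19a2 read 8.57, 8.83 and 8.73 in controls and 9.74, 9.39 and 9.71 in mutants, a 1.87-fold rise (log2 0.90 ± 0.14, adjusted p = 0.00674). Slc19a3 was not detected on any control array, where it read 5.50, 5.32 and 5.14, and was detected on all 3 mutant arrays at 7.38, 6.82 and 6.13. It was at least 1.78-fold higher (adjusted p = 0.0146), a bound that sets the mutant mean against the higher of each control value and the lowest detected value on that array, and its fold was 1.33 without background correction. Slc23a3, a relative of the ascorbate transporter genes, rose 2.25-fold (log2 1.17 ± 0.20, adjusted p = 0.00806). The proton-coupled folate transporter gene Slc46a1 was the faller, at 7.18, 6.57 and 6.72 in controls and 5.54, 5.63 and 5.26 in mutants, where no array detected it, so it was at least 1.65-fold lower (adjusted p = 0.00547), with a fold of 1.28 without background correction. Slc19a3 and Slc46a1 passed the detection filter through 1 group alone and so had to differ. Slc19a3 is among the 3 rises counted above, and Slc46a1 is the 1 fall. The reduced folate carrier gene Slc19a1 differed by -0.23 and the ascorbate transporter gene Slc23a2 by 0.71 ± 0.42, the latter with mutant mouse 3 at 8.67 against 7.73 and 7.04 in the other mutants.

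Carriers of zinc, copper, iron and magnesium showed 2 rises and 2 falls among 23 genes (17.4%, against 27.2% of all genes), with a median of -0.02. Slc39a8, which encodes ZIP8, an importer of zinc and manganese, read 8.83, 9.17 and 9.18 in controls and 10.54, 10.27 and 10.20 in mutants. It rose 2.43-fold (log2 1.28 ± 0.15, adjusted p = 0.00379) and kept its call with any 1 mouse left out. Slc30a1, which encodes ZnT1, the zinc exporter of the plasma membrane, rose 1.45-fold (log2 0.54 ± 0.15, adjusted p = 0.0344), from 7.53 to 7.87 in controls to 8.07 to 8.41 in mutants. Slc30a9, which encodes ZnT9 of mitochondria, fell 1.73-fold (log2 -0.79 ± 0.15, adjusted p = 0.0112). Slc39a13, which encodes the intracellular zinc transporter ZIP13, fell 1.47-fold (log2 -0.55 ± 0.15, adjusted p = 0.0355). The iron exporter gene Slc40a1 and the copper importer gene Slc31a1 differed by 0.21 and 0.23, with overlapping groups. The call of Slc30a1 was lost without any 1 of the 6 mice, with median scaling, with the deposited processed values and without the filter (adjusted p up to 0.132), and that of Slc30a9 with the deposited processed values (0.0644). The call of Slc39a13 was lost without any 1 control, mutant mouse 1 or mutant mouse 3, without the filter and with the deposited processed values (up to 0.101). With array weights 6 of the 23 genes fell, while 19.2% of all genes fell.

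Metallothioneins, small proteins that bind zinc and copper, also rose. Of 15 measured genes of metal storage and handling, 2 rose and 3 fell, where 12.7% of all genes tested rose and 14.5% fell. The risers were Mt1, at 14.22, 14.37 and 14.97 in controls and 15.72, 15.70 and 15.99 in mutants (log2 1.28 ± 0.21, adjusted p = 0.00768), and Mt2, at 6.58, 6.04 and 7.42 against 8.16, 8.48 and 9.36 (log2 1.98 ± 0.42, adjusted p = 0.0156). The groups did not overlap for either gene, and control mouse 3 was the highest control for each. Those that fell were Tfrc, the transferrin receptor gene (log2 -0.56 ± 0.11), Trf, the transferrin gene (-0.80 ± 0.19), and Heph, which encodes the iron oxidase hephaestin (-0.83 ± 0.20). Without background correction Mt2 was 1.80-fold higher. The calls of Mt2 (adjusted p = 0.0577), Tfrc (0.0563), Trf (up to 0.0715) and Heph (up to 0.077) were lost without control mouse 1, those of Trf and Heph also without control mouse 2, that of Trf without mutant mouse 3 and that of Heph with the mean of all its probes.

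**Figure D3:**
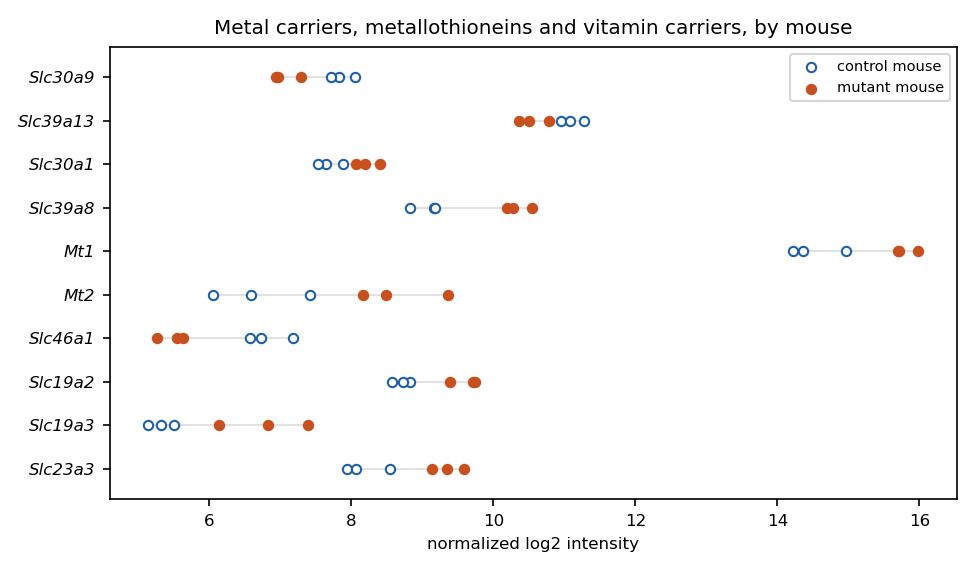
Points are normalized log2 intensities of single mice (horizontal axis) for 4 zinc carriers, the metallothioneins Mt1 and Mt2 and 4 vitamin carriers. Mutant and control mice do not overlap for any gene shown, and levels of different genes come from different probes and are not comparable.

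Metal response elements are promoter motifs bound by the zinc-sensing factor MTF-1, with the core TGCACNC or TGCGCNC on either strand, and Mt1 and Slc30a1 are textbook targets of that factor. The promoters of the zinc carriers that rose are therefore shown beside that of Mt1, each from 250 bases before to 50 bases after a RefSeq gene start (GRCm38.p6), in lower case with matches to the core in capitals.
Slc30a1 (chr1:191906531-191906830, plus strand): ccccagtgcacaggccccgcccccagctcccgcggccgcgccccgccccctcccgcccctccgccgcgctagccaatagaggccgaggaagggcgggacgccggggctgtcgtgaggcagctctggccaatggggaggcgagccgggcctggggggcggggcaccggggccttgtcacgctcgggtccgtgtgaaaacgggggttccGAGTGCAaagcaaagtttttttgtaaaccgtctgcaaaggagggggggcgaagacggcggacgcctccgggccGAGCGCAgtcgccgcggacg
Slc39a8 (chr3:135825407-135825706, plus strand): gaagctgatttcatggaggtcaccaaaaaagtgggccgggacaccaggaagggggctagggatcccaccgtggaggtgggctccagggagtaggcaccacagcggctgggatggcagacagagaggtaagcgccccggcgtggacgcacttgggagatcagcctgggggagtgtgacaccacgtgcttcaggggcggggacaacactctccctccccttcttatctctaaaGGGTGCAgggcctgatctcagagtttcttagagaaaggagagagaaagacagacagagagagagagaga
Mt1 (chr8:94178839-94179138, plus strand): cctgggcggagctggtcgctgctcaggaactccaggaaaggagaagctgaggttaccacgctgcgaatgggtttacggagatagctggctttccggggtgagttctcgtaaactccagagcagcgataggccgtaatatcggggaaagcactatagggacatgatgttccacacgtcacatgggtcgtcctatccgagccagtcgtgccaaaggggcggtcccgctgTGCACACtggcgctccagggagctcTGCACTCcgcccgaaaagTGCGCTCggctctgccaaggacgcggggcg
Mt1 held 3 matches in this window, Slc30a1 held 2 and the Slc39a8 start shown held 1, while the window of a second Slc39a8 start held none. The core was common: 25.7% of all 32851 promoter windows held it. Counted by gene, with a match in any of its windows, it was found in 28.2% of 27025 genes and 42.2% of member genes. Of member genes with a window, these were 9 of the 24 that rose (37.5%), 3 of the 11 that fell (27.3%) and 42 of the 93 that did not pass (45.2%). A match to these letters is a description and does not show that a factor binds there.

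Ion exchangers and cotransporters formed classes too small to compare their shares with the 27.2% of all genes tested that passed. Of 7 genes for bicarbonate and anion exchange 1 rose (14.3%, class median -0.21), and of 6 cation-chloride cotransporter genes 1 rose (16.7%, median -0.11). Of 4 sodium-proton exchange genes and 4 calcium exchange genes none passed. The first class counts by symbol the adaptor gene Slc4a1ap, whose own difference is that median of -0.21. The sodium-proton class likewise counts the scaffold genes Slc9a3r1 and Slc9a3r2. In the bicarbonate and anion class, Slc4a3 and Slc26a9 did not pass on their brightest probe but had other probes that fell, as given below. Slc12a2, which encodes NKCC1, the sodium, potassium and chloride loader of secretory epithelium, read 13.86, 13.68 and 13.96 in controls and 14.30, 14.27 and 14.29 in mutants. This was a 1.37-fold rise (log2 0.46 ± 0.12, adjusted p = 0.0297), and its second probe rose as well. Slc4a8, which encodes a sodium-driven chloride and bicarbonate exchanger, rose 1.61-fold (log2 0.69 ± 0.18, adjusted p = 0.0291) and did so with both of its probes. For Slc8b1, the mitochondrial sodium-calcium exchanger gene, the difference was 0.45 ± 0.16 (adjusted p = 0.0718), and for Slc8a1, the main such exchanger of heart muscle, it was -0.41 ± 0.16 (adjusted p = 0.105), each with groups that did not overlap. The endosomal and Golgi exchanger genes Slc9a9 and Slc9a8 differed by -0.44 ± 0.18 (adjusted p = 0.108) and 0.30 ± 0.11 (adjusted p = 0.0728). The calls of Slc12a2 (adjusted p up to 0.0868) and Slc4a8 (up to 0.0896) were lost without control mouse 1 or 2 or any 1 mutant, and that of Slc4a8 also with the deposited processed values. Slc8b1 passed in 4 alternatives: without background correction, with array weights, with a robust variance trend and without mutant mouse 3.

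Mitochondrial carriers of the SLC25 family, the largest class, held the most rises. Of 30 measured genes, 9 rose (30%) and 1 fell (3.33%), against 12.7% and 14.5% of all genes tested. The class median was 0.19, against 0.01 over all genes. Slc25a29, a carrier of basic amino acids, read 7.25, 6.59 and 7.15 in controls and 8.73, 8.65 and 8.66 in mutants. This was the largest rise of any measured carrier, 3.22-fold (log2 1.69 ± 0.18, adjusted p = 0.00343). Slc25a47, best known from liver, rose 1.70-fold (log2 0.77 ± 0.11, adjusted p = 0.00582), from 8.29 to 8.47 in controls to 9.09 to 9.24 in mutants. Slc25a29 and Slc25a47 lie next to each other on chromosome 12 among RefSeq protein-coding genes, the single such pair among the 155. Slc25a33, a pyrimidine nucleotide carrier that insulin-like growth factor signalling induces, read 9.30, 9.51 and 9.04 in controls and 10.73, 10.63 and 10.41 in mutants. Its rise was 2.48-fold (log2 1.31 ± 0.16, adjusted p = 0.0039).

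The other mitochondrial rises follow gene by gene, while 20 of the 30 genes of the class did not pass. Slc25a34, whose substrate is not settled, was 2.88-fold higher (log2 1.52 ± 0.33, adjusted p = 0.0164), and control mouse 3 at 7.53 was far above the other controls at 6.32 and 6.39. Slc25a27, which encodes the uncoupling protein UCP4 of brain, was 2.53-fold higher (log2 1.34 ± 0.32, adjusted p = 0.0242) and was detected on 2 control arrays. Slc25a18, a glutamate carrier, was 2.29-fold higher (log2 1.20 ± 0.24, adjusted p = 0.0132). Slc25a16, linked to coenzyme A import, was 1.80-fold higher (log2 0.85 ± 0.15, adjusted p = 0.00956). Slc25a28, which encodes the iron importer mitoferrin 2, was 1.54-fold higher (log2 0.62 ± 0.12, adjusted p = 0.0125), with control values of 12.27 to 12.56 and mutant values of 12.97 to 13.03. Slc25a38, which carries glycine for haem synthesis, was 1.34-fold higher (log2 0.42 ± 0.11, adjusted p = 0.0348), and 2 of its 3 probes rose. Slc25a45 was the faller (log2 -0.64 ± 0.11, adjusted p = 0.00835), with control values of 10.65 to 10.78 and mutant values of 10.01 to 10.17. Of the 9 that rose, Slc25a16, Slc25a28, Slc25a38 and Slc25a47 were named after their values were seen.

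Several widely studied mitochondrial carrier genes, named after their values were seen, follow as single values. The carnitine carrier gene Slc25a20 differed by -0.01 and the ADP/ATP carrier gene Slc25a5 by 0.40 ± 0.17 (adjusted p = 0.119), with overlapping groups. The phosphate carrier gene Slc25a3 differed by 0.01 on its brighter probe, while its second probe fell by 0.82 on the log2 scale (adjusted p = 0.0122), so its 2 probes disagree. Slc25a25, the ATP and phosphate carrier gene, read 9.03 to 9.25 in controls and 8.58, 8.98 and 11.01 in mutants, the widest spread within a group of any measured carrier (SD 1.30). Without background correction Slc25a29 was 1.69-fold, Slc25a27 1.34-fold and Slc25a18 1.33-fold higher, and Slc25a34 lay between the first pair. Without control mouse 1, 5 mitochondrial carriers and 5.28% of all genes rose. Slc25a27 (adjusted p = 0.0705), Slc25a28 (0.0545), Slc25a34 (0.059) and Slc25a38 (0.0867) then lost their calls. Slc25a34 was also lost without control mouse 2, Slc25a27 without mutant mouse 1 or 2, and Slc25a38 without any other mouse but mutant mouse 3, with median scaling or without the filter (up to 0.112). With the deposited processed values Slc25a18 (0.0503) and Slc25a27 did not pass. Where detection p below 0.01 was required on all 6 arrays, 6 members rose, while 16.4% of the 7494 genes then tested rose.

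**Figure D4:**
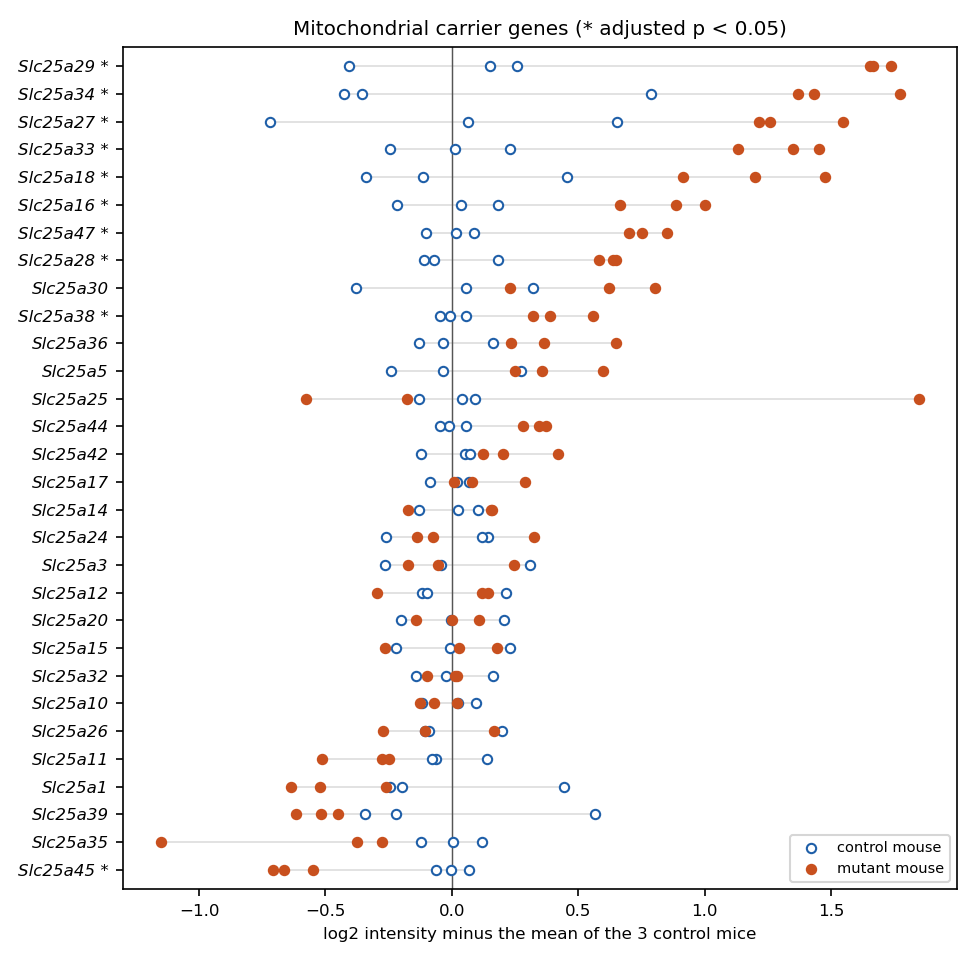
Points are single mice for the 30 mitochondrial carrier genes, as log2 intensity minus the mean of the 3 control mice (horizontal axis), with genes past the threshold starred. Starred genes at the top are the 9 that rose, Slc25a45 at the bottom fell, and mutant mouse 3 stands far to the right for Slc25a25.

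The SLC35 family, classed here by family number as nucleotide sugar carriers of the Golgi and endoplasmic reticulum, included 4 rises and 3 falls among 19 genes. This was 36.8%, against 27.2% of all genes, with a class median of 0.15. Not every member is known to carry a nucleotide sugar. The 3 falls are given first, and 12 genes of the class passed in neither direction. Slc35a2, the UDP-galactose transporter gene, read 9.57, 9.85 and 9.62 in controls and 8.59, 8.91 and 8.70 in mutants, a 1.93-fold fall (log2 -0.95 ± 0.14, adjusted p = 0.00582). Slc35c2, linked to fucosylation, fell with all 3 of its probes, by 0.57 ± 0.12 on the brightest (adjusted p = 0.0145), and Slc35b4, a transporter of UDP-xylose and UDP-N-acetylglucosamine, by 0.47 ± 0.11 (adjusted p = 0.0199). Slc35b3, which brings the sulfate donor PAPS into the Golgi, rose 1.52-fold (log2 0.60 ± 0.11, adjusted p = 0.00974), with mutant values of 11.90, 11.91 and 11.91. The other risers have less settled substrates: Slc35g1 rose 2.07-fold, Slc35f6 1.96-fold and Slc35e4 1.71-fold (adjusted p = 0.0234, 0.00365 and 0.02), Slc35e4 being detected on 1 control array, and Slc35f6 was 1.28-fold higher without background correction.

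Some calls of this family rested on single mice. The calls of Slc35g1 (adjusted p up to 0.0715) and Slc35e4 (up to 0.114) were lost with control mouse 1, mutant mouse 1 or mutant mouse 2 left out and with the deposited processed values, that of Slc35g1 also without control mouse 2, and that of Slc35e4 also without background correction, so that 2 members rose without any 1 of those 3 mice. The call of Slc35b4 was lost without control mouse 1 or mutant mouse 1 (up to 0.0723) and that of Slc35c2 without control mouse 1 (0.0614). There 1 member fell, while 7.16% of all genes fell. Slc35b3 and Slc35b4 were named after their values were seen.

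In the small vesicular, peptide and drug classes 33.3%, 33.3% and 11.1% of genes passed, against 27.2% of all genes tested. Of 6 genes for phosphate and vesicular transport 2 rose (class median 0.45). Slc17a5, which encodes sialin, the sialic acid exporter of lysosomes, read 8.93, 8.72 and 9.25 in controls and 9.87, 9.78 and 9.71 in mutants, a 1.76-fold rise (log2 0.82 ± 0.16, adjusted p = 0.0119). Slc17a8, the vesicular glutamate transporter 3 gene, was detected on 2 control arrays and rose 1.66-fold (log2 0.73 ± 0.18, adjusted p = 0.0263). Of 3 oligopeptide transporter genes, Slc15a2, which encodes PEPT2 of lung epithelium, rose 2.03-fold (log2 1.02 ± 0.30, adjusted p = 0.0434), with mutant mouse 1 at 9.68 above the others at 8.56 and 8.97. Of 9 genes for organic ions, bile acids and drugs, Slc22a23 fell (log2 -0.50 ± 0.13, adjusted p = 0.0334), from 11.20 to 11.25 in controls to 10.49 to 10.90 in mutants. Of 3 genes of other substrates none passed, the lowest p-values being those of Slc49a4 (0.21, adjusted p = 0.233) and Slc66a2 (-0.25, adjusted p = 0.392).

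The calls of that set depended on the mice in it. The call of Slc17a8 was lost without control mouse 1 or any 1 mutant, without background correction, with median scaling and with the deposited processed values (adjusted p up to 0.128). The calls of Slc15a2 (up to 0.134) and Slc22a23 (up to 0.0946) were lost without any 1 control, mutant mouse 1 or mutant mouse 3 and without the filter, and that of Slc15a2 also with the deposited processed values. The organic ion class median was 0.19 and was 0.0058 without control mouse 2.

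Where a gene had several probes they mostly pointed the same way. Of 30 carriers with more than 1 tested probe, 21 had all probes of 1 sign, and none had probes that passed in opposite directions. All probes passed in 1 direction for Slc12a2, Slc4a8 and Slc35c2. In 11 genes some probes passed and others did not, and probe choice decided the call in several of them. Among the carriers called above, 1 of 2 probes passed for Slc44a1 and Slc39a13, where the other probe differed by 0.43 and -0.46. For Slc35b3 and Slc25a38, 2 of 3 probes passed. Slc4a3, which encodes the anion exchanger AE3 of heart and brain, did not pass on its brightest probe (log2 -0.50 ± 0.16, adjusted p = 0.0566; it passed in 6 alternatives), while its other 2 probes fell, by 0.93 and 0.66 on the log2 scale. Slc26a9, a chloride transporter gene of airway epithelium, differed by 0.66 ± 0.34 on its brightest probe (adjusted p = 0.195), whereas a second probe, not detected on any mutant array, was at least 1.39-fold lower (adjusted p = 0.0167). Slc22a5, the carnitine transporter gene, differed by 0.51 ± 0.17 on 1 probe (adjusted p = 0.0643) and rose by 0.74 on the other (adjusted p = 0.0137). Slc4a3, Slc26a9 and Slc22a5 were named after their values were seen, and the sources used here do not say which transcripts each probe matches.

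Other membrane transport genes were counted in the same fit, in which 12.7% of all genes tested rose and 14.5% fell. Of 5 measured organic anion carriers of the SLCO family, which the rule leaves out by symbol, none passed. Of 7 sodium-potassium pump subunit genes 1 rose and 1 fell: Atp1b1, the beta 1 subunit gene, rose by 1.03 ± 0.13 (adjusted p = 0.0039), from 13.96 to 14.29 in controls to 15.08 to 15.16 in mutants, and the pump modulator gene Fxyd3 fell by 0.69 ± 0.16. Of 12 partners and chaperones 2 rose and 1 fell, among them Wnk4, a kinase that regulates cation-chloride cotransporters (log2 0.66 ± 0.15, adjusted p = 0.019), Rab4a (0.76 ± 0.17) and Ostc (-0.70 ± 0.12). Of 8 carbonic anhydrase and chloride channel genes 1 rose and 2 fell, led by Car4 of capillary endothelium (log2 -1.28 ± 0.18, adjusted p = 0.00528) and Car2 (-0.97 ± 0.26), and Clcn3 rose by 0.37. Of 11 ABC transporter genes 3 rose and 1 fell, led by the drug efflux pump gene Abcb1b (log2 1.64 ± 0.18, adjusted p = 0.0032), with Abcc3 at 0.69 ± 0.21 and Abcc5 at -0.58 ± 0.11.

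Leaving out control mouse 1 ended several of these calls: Fxyd3 (adjusted p = 0.0506), Rab4a (0.0575), Car2 (0.0735), Clcn3 (0.143), Abcc3 (0.12), Wnk4 (0.0642) and Abcc5 (0.0514). All but Abcc5 were also lost without mutant mouse 1. With the mean of all its probes Abcc5 differed by -0.0070 (adjusted p = 0.973), and without background correction Wnk4 did not pass (adjusted p = 0.0742). Atp1b1, Ostc, Car4 and Abcb1b kept their calls in each alternative, and Abcb1b was 1.96-fold higher without background correction.

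The size of some folds depended on the processing, and the part of probe brightness in this was not tested. Of the 38 carriers past the threshold, 12 had folds over 1.5 times smaller without background correction and 13 with the deposited processed values, and 3, Slc16a3, Slc17a8 and Slc35e4, did not pass without background correction. No called carrier changed direction under any of 17 alternatives. The spread between mice of a group was close to that of the array as a whole, with a median SD of 0.18 in each group for carriers and of 0.16 in controls and 0.17 in mutants over all genes tested.

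**Figure D5:**
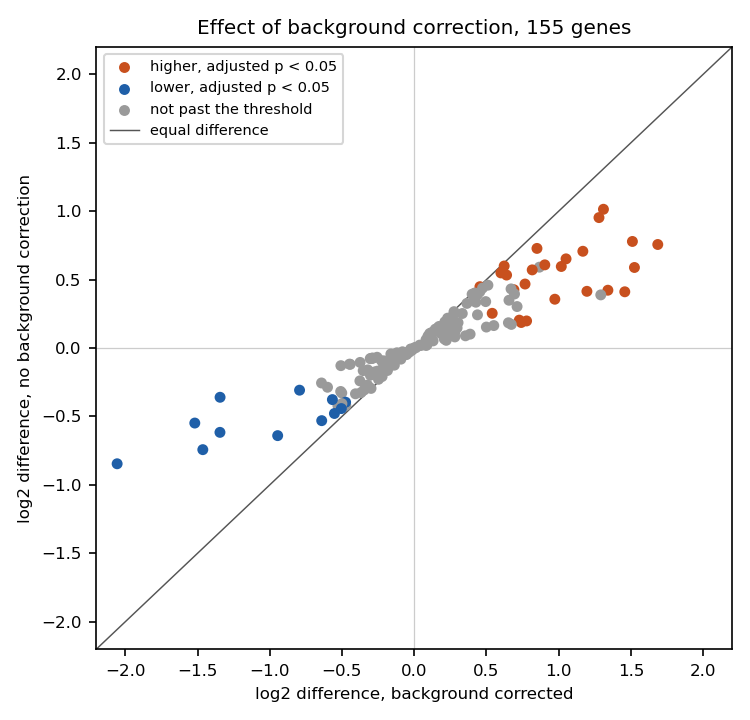
Each point is 1 of the 155 carrier genes, with its log2 difference after background correction on the horizontal axis and without it on the vertical axis. Most points lie nearer to 0 vertically than the line of equal difference, as for Slc27a3 (a fold of 4.16 against 1.80) and Slc25a29 (3.22 against 1.69), and those past the threshold keep their sign.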

How the data were processed

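Per the labels' protocols, biotin-labelled cRNA from 550 ng of lung RNA was hybridised to bead arrays made by Illumina, with 1 array for each mouse. The deposited unnormalized table holds for each probe a linear intensity and a detection p-value, per the file headers. The submitters' processing notes list GenomeStudio 2009.2 and R 2.4.1, with no role stated, and neither background subtraction nor chip nor scan is described. A deposited table of log2 values made by the authors, quantile normalized over 13261 probes, gives mutant mice 1 and 2 identical columns at all 13261 probes (0 shared intensities in the unnormalized table), so it served only as an alternative, with mutant mouse 1 dropped (3 controls against 2 mutants).

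Intensities were background corrected with controls inferred from the detection p-values, quantile normalized and put on the log2 scale with an offset of 16 (neqc, limma 3.58.1, R 4.3.3). Probes with detection p below 0.05 on at least 3 of 6 arrays were tested with lmFit and eBayes, and p-values were adjusted by Benjamini-Hochberg over 13361 probes. Where several tested probes named a gene, the brightest by mean over the 6 arrays stood for it. Of 12495 probes with a symbol in the platform annotation, 12490 were updated by Entrez identifier through RefSeq (GRCm38.p6), and 932 tested probes were unnamed here. Mice with the same number in both groups were not paired (correlations of their deviations -0.09, -0.01 and -0.04). The number of arrays limits the precision, and p-values reflect the spread between separate mice. Substrate classes follow SLC family numbers. Members and lists were chosen with earlier results of these data known, so no p is given for a list. Named genes were the 10 largest rises and falls, up to 4 past the threshold per class (else the 2 with the lowest p), and up to 3 per other transporter list. Genes named outside that rule, after their values were seen, are Slc2a3, Slc2a4, Slc5a8, Slc13a4, Slc19a1, Slc23a2, Slc31a1, Slc40a1, Slc25a3, Slc25a5, Slc25a20, Slc25a25, Slc4a3, Slc4a1ap, Slc26a9, Slc22a5, Slc27a1, Trf, Tfrc, Hba-a1, the 6 genes detected on 3 arrays and those so described in the text. The fit was tested on simulated data.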

Additional observations from a re-analysis of the deposited data

How the results depend on the processing

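Of the 38 carriers that passed, 20 did so in every alternative that tested them, of up to 17, and 18 lost the call in at least 1, 16 of them with a single mouse left out. None changed direction. With 3 mice per group and dim probes, small differences cannot be resolved. Leaving out each mouse in turn gave 16 to 26 rises, 8 to 14 falls and a carrier median of 0.086 to 0.12, while 5.28% to 11.2% of all genes rose and 7.16% to 12.3% fell. Class medians then ranged from -0.24 to -0.12 for bicarbonate and anion exchange, -0.20 to 0.031 for cation-chloride cotransport, 0.04 to 0.16 for fatty acids and choline, -0.10 to 0.16 for hexoses, 0.15 to 0.23 for mitochondrial carriers, 0.39 to 0.84 for monocarboxylates, 0.07 to 0.16 for vitamins, 0.13 to 0.17 for nucleotide sugars, 0.0058 to 0.21 for organic ions, 0.36 to 0.49 for phosphate and vesicular carriers and -0.048 to 0.081 for metals.

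Array weights gave 20 falls (19.2% of all genes fell), and medians of 0.35 for phosphate and vesicular carriers and 0.034 for metals. Without background correction the carrier median was 0.060, and class medians were -0.11 for bicarbonate, 0.019 for hexoses, 0.39 for monocarboxylates and 0.18 for phosphate and vesicular carriers. Median scaling gave 0.027 for all carriers, 0.0037 for hexoses and 0.39 for phosphate and vesicular carriers, and an offset of 50 gave 0.34 for the last. The deposited processed values gave 0.050 for all carriers, -0.089 for bicarbonate, 0.23 for monocarboxylates, 0.15 for phosphate and vesicular carriers, 0.11 for mitochondrial carriers and 0.047 for metals. Detection on all 6 arrays with p below 0.01, which tests fewer genes, gave -0.12 for bicarbonate, 0.18 for hexoses, 0.52 for phosphate and vesicular carriers, 0.038 for mitochondrial carriers, 0.24 for fatty acids, 0.27 for vitamins and -0.15 for organic ions. The mean of all probes gave 0.037 for metals and 0.21 for fatty acids. The cause of these shifts was not tested. With the replicate number as a block, which does not pair the mice, 20 carriers rose and 10 fell, as did 8.84% and 11.4% of all genes.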
